A study of Mus musculus with 8 samples.

Results

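The receptors, co-receptors and GLI transcription factors of the Hedgehog pathway were followed in adipocyte precursors, mesenchymal cells of the dermis that can become fat cells. The 9 genes were taken by name (Gli1, Gli2, Gli3, Ptch1, Smo, Hhip, Gas1, Boc and Cdon). Each is listed as 1 isoform, so that they make up 9 of 34535 isoforms and 9 of 24358 genes of the table. The precursors had been sorted by flow cytometry from dermis. The mice were C57/Bl6 males, 7 weeks old, and RNA-seq covered 2 groups, dorsal skin without a wound (6 samples) and wound beds at day 5 (2 samples). No transgene, deletion or drug is named for either group, the surface markers of the sort are not given in the sources used here, and nothing says whether the samples came from separate or pooled animals. The table gives 1 FPKM (fragments corrected for transcript length and library size) for each group and isoform and 1 p-value for their comparison. It holds no value per sample, so no SD, no depth and no count of samples that share a direction can be given. Where the samples are not separate animals, the p-values measure only the spread between these samples, which may be technical.

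Hedgehog ligands are secreted, lipid-modified proteins that bind the receptor Patched 1 (Ptch1) at the cell surface. Free of ligand, Patched 1 keeps the membrane protein Smoothened (Smo) inactive. Once ligand binds, Smoothened gathers in the primary cilium and the GLI factors become activators of transcription. Gas1, Boc and Cdon are co-receptors that help Patched 1 bind ligand, and Hhip is a membrane-bound and secreted protein that captures it. Gli1 and Ptch1 are themselves among the most general target genes of the pathway. In skin, ligand from the epithelium of growing hair follicles acts on the dermal cells around them.

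Gli3 was the 1 member that passed the test, and it was higher in the wound bed. Its start region is shown beside that of Cdon, the 1 tested member with a lower FPKM in the wound bed, because these windows differ widely in base composition. Each runs from 250 bases before to 50 bases after the gene start in RefSeq (GRCm38.p6), reads 5′ to 3′ on the gene's strand, and has every CG dinucleotide in capitals. The Gli3 window lies at chr13:15463473-15463772 on the plus strand and the Cdon window at chr9:35451826-35452125 on the plus strand.
Gli3: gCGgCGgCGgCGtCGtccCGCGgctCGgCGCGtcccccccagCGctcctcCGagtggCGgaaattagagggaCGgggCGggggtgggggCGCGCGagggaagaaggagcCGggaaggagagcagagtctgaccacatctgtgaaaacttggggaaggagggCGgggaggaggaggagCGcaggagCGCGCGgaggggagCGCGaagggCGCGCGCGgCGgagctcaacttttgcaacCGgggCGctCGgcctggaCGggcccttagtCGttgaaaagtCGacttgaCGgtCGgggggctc
Cdon: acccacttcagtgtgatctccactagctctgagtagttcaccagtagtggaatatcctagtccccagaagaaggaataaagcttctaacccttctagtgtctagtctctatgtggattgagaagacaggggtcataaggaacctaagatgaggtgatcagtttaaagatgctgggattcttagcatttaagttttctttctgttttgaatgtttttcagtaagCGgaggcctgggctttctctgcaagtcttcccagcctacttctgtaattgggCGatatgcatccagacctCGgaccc
The Gli3 window held 39 CG dinucleotides and was 71.0% G or C. The Cdon window held 3 and was 44.7% G or C. Over all 32851 windows of this length the median was 7 CG dinucleotides. Windows were matched for 7 of the 9 members, and the other five besides Gli3 and Cdon held from 17 (Smo and Gas1) to 47 (Ptch1). The GLI binding motif GACCACCCA was searched on both strands (TGGGTGGTC on the other) and was found in 0 of the 7 member windows, against 0.253% of all windows. With any base at its centre (GACCNCCCA or TGGGNGGTC), a form that includes the first, it was again found in 0 of 7, against 0.977% of all windows. At shares this low, 0 of 7 was the likely outcome for any 7 windows, so nothing is read from it. Gli1 and Boc had no matched window. The Ptch1 window starts from a site 215 bases from the edge of the locus in the table, and in the other six matched members the RefSeq start and that edge coincide. GENCODE places the start of the Cdon gene 30948 bases upstream of the one used here and that of Gli3 488 bases upstream, so each window shows 1 annotated start and not every start of its gene.

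The sorted cells were checked against 9 marker genes of adipocyte precursors. All 9 were tested. Single genes are given by their major isoform, the tested isoform whose FPKM summed over both groups was highest, unless a sum is named. Sums for a list add the isoforms of each gene. Pdgfra, a growth factor receptor gene that marks dermal mesenchyme, stood at an FPKM of 81.2 in wound bed cells and 78.8 in nonwounded cells. Cd34 (476 and 739) and Ly6a (1539 and 2149), surface markers of these precursors, were also high in both groups, while Dpp4 and Cd24a were called lower in the wound bed. Because the surface markers of the sort are not given, high Cd34 and Ly6a may follow from the sort itself. Itgb1 (197 and 117) and Pdgfrb (31.3 and 20.7) had the higher value in the wound bed without a call. Zfp423 (4.52 and 6.02) and Pparg (1.30 and 1.22) were low in both groups, also without a call. The precursor list summed to 2674 and 4274. As a background for the calls in these lists, 7.0% of all major isoforms tested were called higher in the wound bed and 8.68% lower. Of 6 leukocyte markers 4 were called higher in the wound bed and 0 lower, and their summed FPKM was 627 there and 215 in nonwounded skin. Lyz2 (524 and 174) carried most of that sum, and all 6 had the higher value in the wound bed. Ptprc, the pan-leukocyte gene that defines leukocytes, stood at 4.13 and 0.453 without a call. The endothelial list summed to 25.2 and 88.7 with 0 of 4 called, and the mural cell list to 18.2 and 60.5 with 1 of 3 tested called lower. Tek (18.4 and 83.1) carried most of the first sum and Kcnj8 (14.9 and 58.3) most of the second, while the other three genes of each list had the higher value in the wound bed and the median log2 differences were 0.35 and 0.25. The keratinocyte list summed to 25.5 and 9.28 with 2 of 4 called higher. The mature adipocyte list summed to 2.39 and 37.5 with 1 of 4 called lower, the muscle list to 2.85 and 27.3 and the Schwann cell list to 1.71 and 5.02, each with 0 of 2 tested called. Myod1 and Sox10 were at 0 in the wound bed. These shifts ran beside every difference given below, and their part in it was not tested.

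The level of the 9 transcripts spanned a wide range in both groups. Because FPKM is scaled to transcript length, it can be compared between genes. In nonwounded skin the order from high to low was Gas1, Cdon, Smo, Boc, Gli3, Gli2, Gli1, Ptch1 and Hhip. In the wound bed it was Gas1, Smo, Cdon, Boc, Gli3, Gli1, Ptch1, Gli2 and Hhip. Whether neighbours in these orders differ beyond the spread between samples cannot be told from 1 value per group. Gas1, Smo and Cdon lay between percentiles 86.5 and 94.1 of all 17775 tested isoforms in both groups. Gli1, Gli2, Gli3 and Ptch1 lay between 15.9 and 32.6 in nonwounded skin and between 36.5 and 56.0 in the wound bed. In sorted cells measured in bulk, fewer cells that express a gene and less RNA per cell cannot be told apart.

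**Figure D1:**
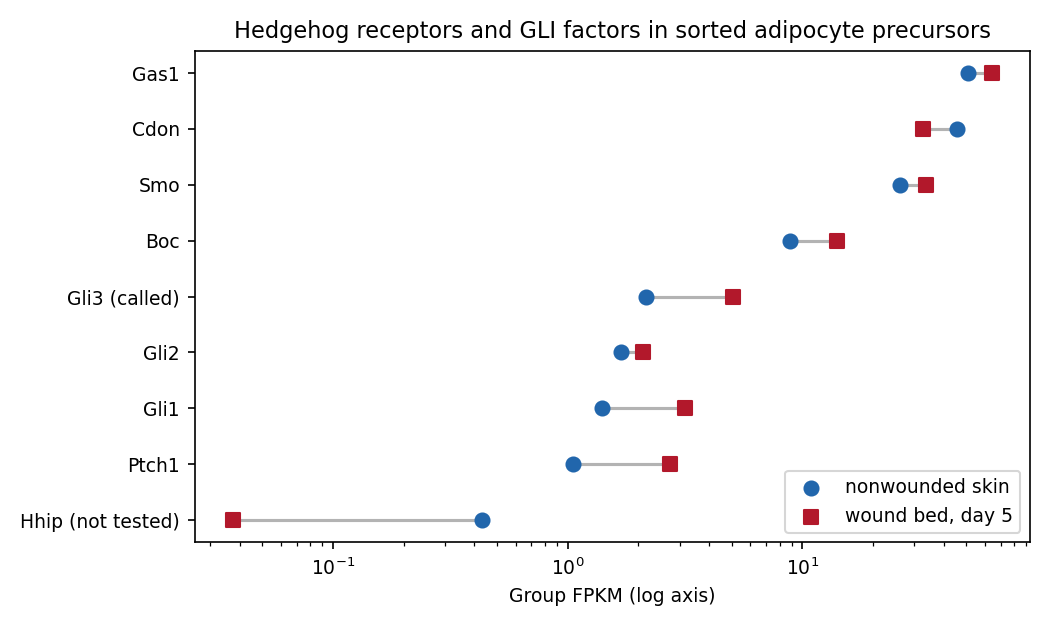
Group FPKM (horizontal log axis) of the 9 genes (rows, ordered by the nonwounded value), with blue circles for nonwounded skin and red squares for the day 5 wound bed, 1 value per group and no error. Gas1, Cdon, Smo and Boc lie above the GLI factors and Ptch1 in both groups, and Gli3 (5.06 against 2.16) is the called gene.

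Of the 8 members tested, 1 was called higher in the wound bed and 0 lower at a Benjamini-Hochberg adjusted p under 0.05 over all tested isoforms, computed from the p-values of the authors' deposited table. Over all tested isoforms 12.9% were called, 5.66% higher and 7.25% lower. Counting only isoforms above 0 in both groups, there were 1002 higher and 933 lower calls, against 1006 and 1288 among all. The members' share, 12.5%, is near that background. Among 9815 tested isoforms of genes that, like the members, are listed with a single isoform, 17.5% were called and 7.68% were called higher. At an unadjusted p under 0.05 there were 3 members, Gli3, Ptch1 and Boc, each with the higher FPKM in the wound bed, against 27.3% of all tested isoforms in either direction and 10.9% in that direction. Hhip was not tested by the authors. The wound bed FPKM was the higher one for 7 of the 8 tested members and for 40.9% of all tested isoforms. The median log2 fold change, with the wound bed as numerator, was 0.51 over the 8 tested members and -0.11 over the 12522 isoforms that reached an FPKM of 1 in both groups.

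The GLI factors differed in how far their levels moved. Gli3, which acts mostly as a repressor of target genes when the pathway is off, stood at an FPKM of 5.06 in wound bed cells and 2.16 in nonwounded cells. It rose by 1.23 on the log2 scale, or 2.35-fold (p = 0.0001 in the authors' deposited table, adjusted p = 0.00167). Its transcript NM_008130 has 15 exons, and its locus in the table runs on chromosome 13 from 15463723 to 15730025 on the plus strand. Of all tested isoforms, 1066 had a p no larger.

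Gli1, a pure activator whose own transcription follows pathway activity, stood at 3.17 and 1.40. The log2 difference of 1.18 was close to that of Gli3 in size but was not called (p = 0.0776 in the authors' deposited table, adjusted p = 0.240). Its locus in the table, chromosome 10 from 127321964 to 127341579 on the minus strand, is shared with Arhgap9, a gene on the opposite strand whose exons overlap 62 of the 4057 exon bases of Gli1. Arhgap9 stood at 2.72 and 1.69 without a call, and the sources used here do not say whether reads were assigned by strand, so reads in the overlap could belong to either gene.

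Gli2, the main activator of the pathway in most tissues, had the smallest difference of the 3 factors. It stood at 2.10 in wound bed cells and 1.69 in nonwounded cells, a log2 difference of 0.31 (p = 0.439 in the authors' deposited table, adjusted p = 0.611). FPKM multiplied by transcript length in kilobases gives a depth-scaled number of fragments behind a value. For Gli3, the longest of the 3 transcripts at 8170 bases, that was 41.4 in wound bed cells and 17.6 in nonwounded cells. Gli1 gave 12.8 and 5.66 and Gli2 14.0 and 11.2.

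Summed over the 3 GLI factors the group FPKM was 10.3 in wound bed cells and 5.25 in nonwounded cells. Gli3 made up 49.0% of the sum in wound bed cells and 41.1% in nonwounded cells, and Gli1 30.6% and 26.6%. Gli2 made up 20.4% and 32.3%. Gli3 held the largest share in both groups, and the lowest share passed from Gli1 to Gli2. These shares have no error and were not tested.

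Ptch1 and Smo, the receptor and the transducer it restrains, stood at very different levels. Ptch1 stood at an FPKM of 2.73 in wound bed cells and 1.05 in nonwounded cells. Its log2 difference of 1.38 was the largest of the tested members, but it did not pass the threshold (p = 0.0131 in the authors' deposited table, adjusted p = 0.0816). Its locus in the table runs on chromosome 13 from 63511533 to 63565520 on the minus strand. With an adjusted p under 0.1 in place of 0.05, Ptch1 and Boc would join Gli3 among the called members.

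Smo stood at 33.5 in wound bed cells and 26.1 in nonwounded cells, with a log2 difference of 0.36 (p = 0.136 in the authors' deposited table, adjusted p = 0.330). The FPKM of Smo was 12.3 times that of Ptch1 in the wound bed and 24.8 times in nonwounded skin. Ptch1 and Gli1, which are both known as target genes, each had the higher value in the wound bed and each missed the threshold.

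Calls were fewer among isoforms at the level of the GLI factors and Ptch1 than over all tested isoforms. Among 5137 tested isoforms whose higher group FPKM lay from 2 to 6, as it did for Gli1, Gli2, Gli3 and Ptch1, 7.46% were called and 2.45% were called higher. Among the 766 of them with a wound bed FPKM at least 2 times the nonwounded one, as for Gli1, Gli3 and Ptch1, 15.7% were called. This range of levels was chosen after the values of the members were seen. Gli1, Gli2 and Ptch1 fall in it only by their wound bed value (nonwounded 1.40, 1.69 and 1.05). The 766 were also picked by the difference under comparison. Neither share is therefore a reference for the calls of the members.

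**Figure D2:**
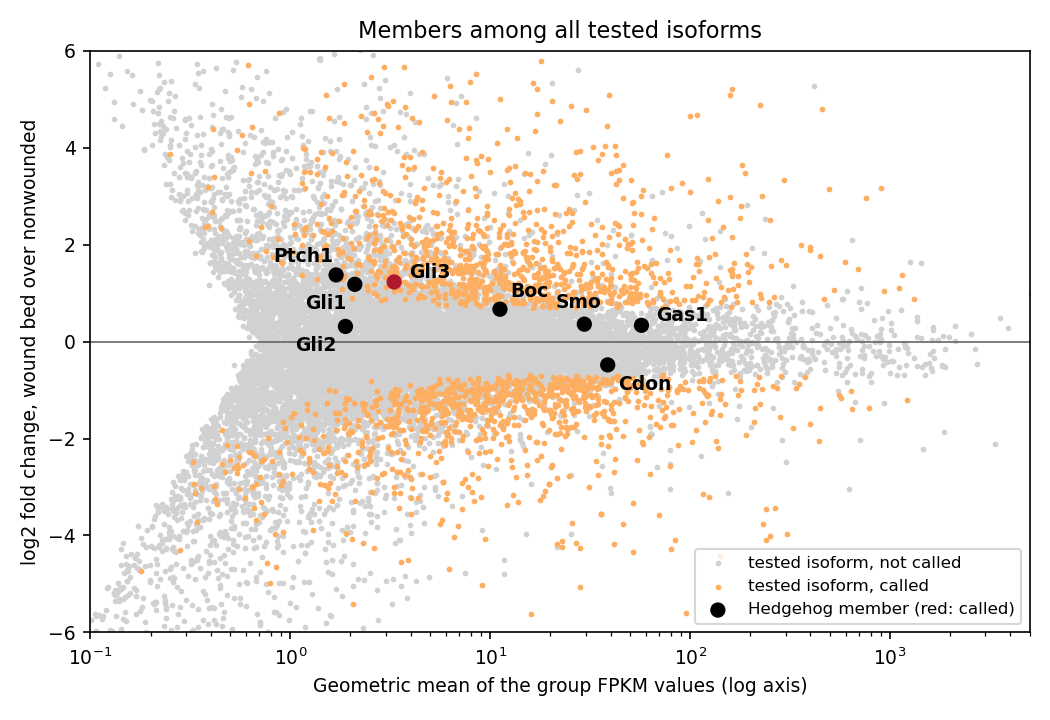
Vertical axis, wound bed over nonwounded log2 fold change against the geometric mean of the group FPKM values (horizontal log axis), 1 point per tested isoform above 0 in both groups, orange if called and grey if not, with the 8 tested members as large points (red if called). Gli3 (1.23) is the called member, Ptch1 (1.38) and Gli1 (1.18) have differences of like size at lower mean levels without a call, and points beyond the axes are not drawn.

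Hhip, which is a target gene as well as an inhibitor, was near the floor of the table. It stood at 0.0373 in wound bed cells and 0.432 in nonwounded cells and carried the authors' status for isoforms that were not tested. Of the 9 members it had the lowest FPKM in both groups, and its values go the other way from those of Ptch1 and Gli1. No fold change is read from values this low. Dermal papilla cells of the hair follicle respond to Hedgehog ligand, and 4 of the 5 other markers fixed for them, Sox2, Alpl, Corin and Rspo4, were also under an FPKM of 1 in both groups. Crabp1, the fifth, stood at 34.0 in wound bed cells and 2.40 in nonwounded cells and was called higher.

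The co-receptors were the most abundant members, and none of them was called. Gas1, a lipid-anchored surface protein with a single-exon gene, stood at an FPKM of 64.1 in wound bed cells and 50.8 in nonwounded cells, a log2 difference of 0.34 (p = 0.169 in the authors' deposited table, adjusted p = 0.370). Boc, an immunoglobulin superfamily member, stood at 14.1 and 8.87, a log2 difference of 0.67 (p = 0.0145 in the authors' deposited table, adjusted p = 0.0875). Cdon, the close relative of Boc, stood at 32.8 in wound bed cells and 45.7 in nonwounded cells, a log2 difference of -0.48 (p = 0.0575 in the authors' deposited table, adjusted p = 0.200). Cdon was thus the tested member with the lower value in the wound bed, and Boc and Cdon differed in sign without either passing the threshold.

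The summed FPKM of the 3 co-receptors was 111.0 in wound bed cells and 105.4 in nonwounded cells. Within it Cdon made up 29.5% in wound bed cells and 43.4% in nonwounded cells, Gas1 57.8% and 48.2%, and Boc 12.7% and 8.42%. The FPKM of Cdon was 2.32 times that of Boc in the wound bed and 5.15 times in nonwounded skin. The sum differed little between the groups while its make-up did, and neither has an error or a test.

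**Figure D3:**
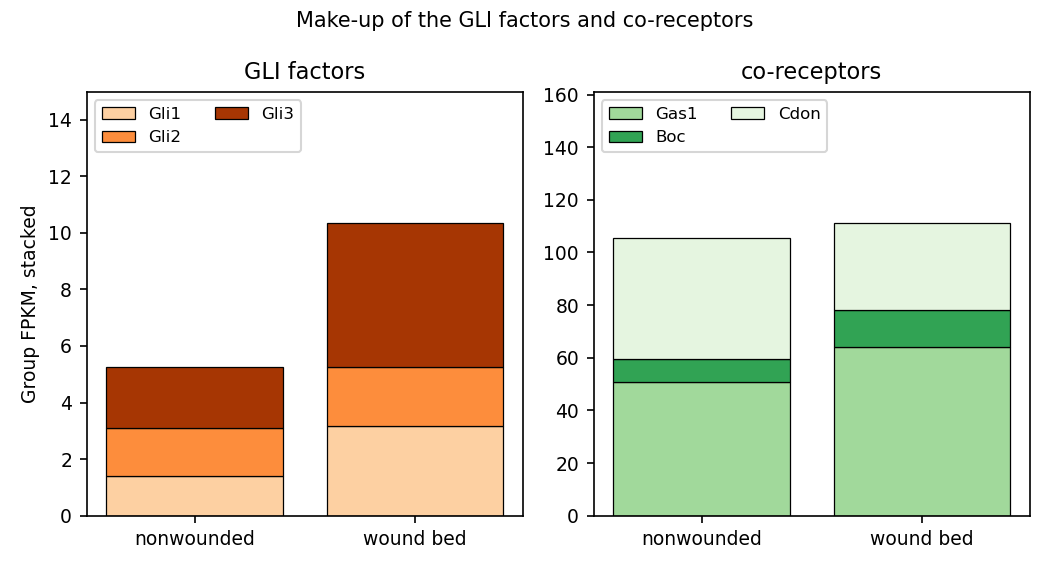
Group FPKM stacked by gene (vertical axes from 0, a scale of its own in each panel) for the GLI factors and the co-receptors, in nonwounded skin and the day 5 wound bed, 1 value per group and no error. The stack reaches 10.3 against 5.25 for the GLI factors and 111.0 against 105.4 for the co-receptors, with a smaller part of Cdon in the wound bed.

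Beyond the members, 46 other genes of the pathway were described by role. Of these 34 were tested, 4 called higher and 3 lower in the wound bed by their major isoform, defined as the tested isoform whose FPKM summed over both groups was highest. These 7 of 34 stand against 15.7% of all 13719 major isoforms tested, of which 7.0% were higher and 8.68% lower. The list was chosen with earlier results of these data known, so its share of calls is a description only. The median log2 fold change of the 33 tested genes that reached an FPKM of 1 in either group was 0.23, against -0.14 over 12458 such major isoforms, and with isoforms summed per gene the list's median was 0.032.

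The 3 ligand genes themselves were barely present in the sorted cells. Shh and Ihh were listed at 0 in the wound bed and at 0.0467 and 0.0133 in nonwounded skin, and Dhh stood at 0.0711 and 0.109. None of the 3 was tested. Hhat, which encodes the acyltransferase that adds palmitate to the ligands, stood at 4.54 and 2.46 without a call. Disp1, which encodes a membrane protein that releases ligand from the cells that make it, was called lower for its major isoform at 3.19 against 11.9 (log2 fold change -1.91, adjusted p = 0.000882 from the authors' deposited table). Another Disp1 isoform stood at 4.17 against 0.0276 without a call, and the sum of the isoforms gave a log2 difference of -0.81.

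Gpc3, which encodes the surface proteoglycan glypican 3, a binder of Hedgehog ligand that competes with Patched in mice, was the most abundant gene of the list. Its FPKM was 217 in wound bed cells and 898 in nonwounded cells, and it fell by 2.05 on the log2 scale (adjusted p = 0.000882 from the authors' deposited table). Its level in nonwounded skin was far above that of any of the 9 members.

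Among 19 genes of cytosolic and ciliary regulators, all tested, 2 were called higher and 0 lower. This share, 10.5%, stands beside 15.7% of all major isoforms called in either direction and 7.0% called higher. With 2 calls, nothing is read from it. Arl13b, a small GTPase gene needed for the form and signalling of the cilium, rose by 1.29 on the log2 scale, from 5.41 to 13.2 (adjusted p = 0.00239 from the authors' deposited table). Csnk1a1, which encodes casein kinase 1 alpha, one of the kinases that phosphorylate GLI proteins, rose by 0.98, from 39.9 to 78.8 (adjusted p = 0.00167 from the authors' deposited table). Sufu, which encodes the protein that holds GLI factors in the cytoplasm, gave a log2 difference of 0.58 for its major isoform and -0.05 for the sum of its isoforms, without a call. Kif7, the gene of a ciliary kinesin that regulates GLI factors, stood at 1.44 and 0.909 for its major isoform, and its sum differed by 0.03 on the log2 scale. Ift88, an intraflagellar transport gene required for cilia, stood at 2.56 and 2.86. Evc (11.6 and 18.7, adjusted p = 0.0695 from the authors' deposited table) had the lower value in the wound bed without a call. So did Iqce (3.10 and 5.57, adjusted p = 0.0982 from the authors' deposited table). By major isoform the wound bed value was the higher one for 12 of the 19.

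Of 16 genes drawn up as responsive to the pathway in some tissues, 11 were tested, 2 called higher and 1 lower. The share called was 27.3% of those tested, against 15.7% of all major isoforms. Because the list was chosen with earlier results of these data known and the calls are few, nothing is read from this share. Spon1, which encodes the matrix protein spondin 1, stood at 12.8 against 5.43 and rose by 1.23 on the log2 scale (adjusted p = 0.000882 from the authors' deposited table). Hsd11b1, the gene of an enzyme that regenerates active glucocorticoid, rose by 1.39, from 8.11 to 21.2 (adjusted p = 0.0143 from the authors' deposited table). Bmp4, a bone morphogenetic protein gene, fell by 2.71, from 7.51 to 1.15 (adjusted p = 0.0331 from the authors' deposited table). Foxf1, a forkhead factor gene, stood at 1.24 against 0.0585 and Snai1 at 13.4 against 5.05, neither called. Osr2, a zinc finger factor gene, stood at 37.8 against 62.2 and the cyclin gene Ccnd1 at 3.34 against 5.83, again without a call. The remaining tested genes were also not called. These were Osr1 (19.3 against 18.1), Sfrp1 (17.4 against 17.3), Ccnd2 (18.4 against 14.7) and Bcl2 (0.357 against 0.789).

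**Figure D4:**
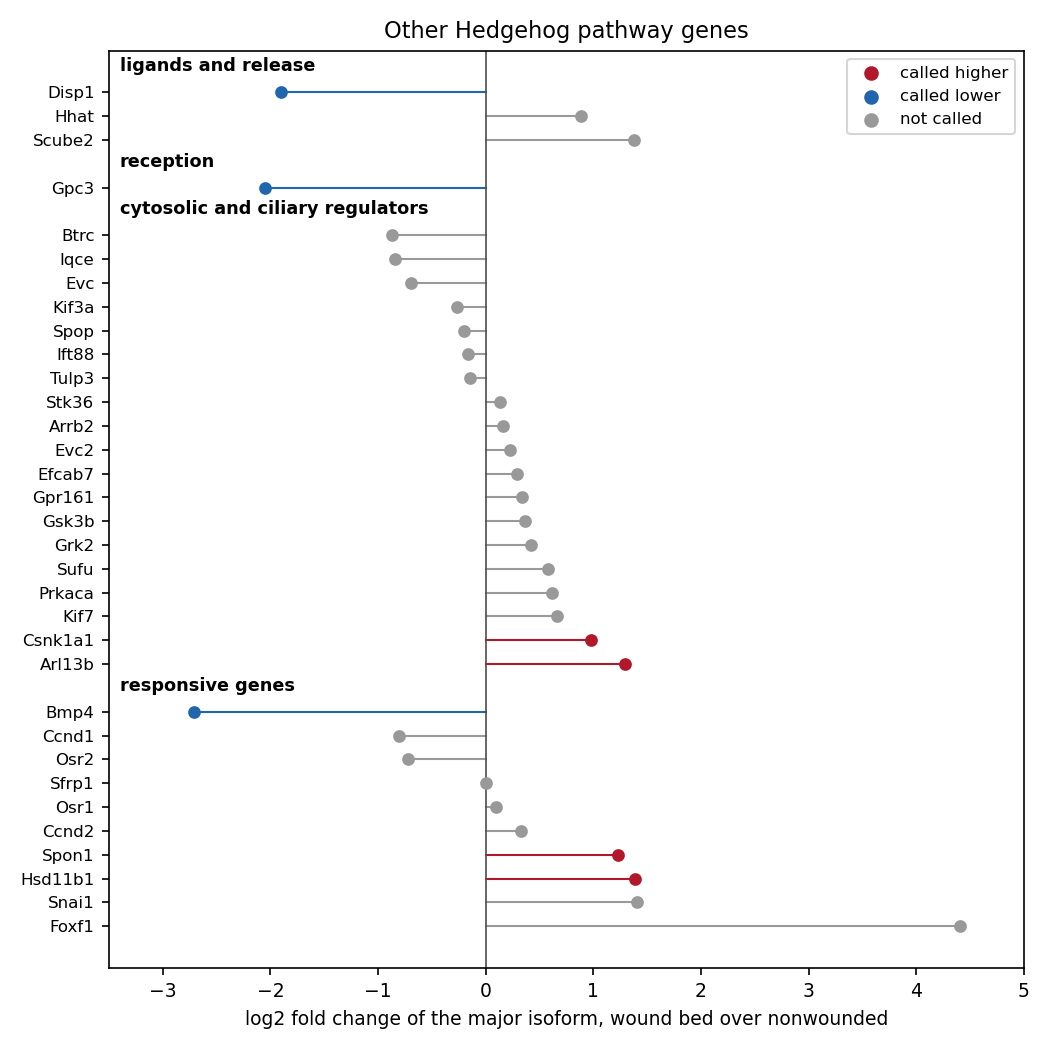
Horizontal axis, wound bed over nonwounded log2 fold change of the major isoform of the 33 tested pathway genes that reached an FPKM of 1 in either group (rows, by role), with red points for higher calls, blue for lower calls and grey for the rest. The calls are Disp1 (-1.91), Gpc3 (-2.05) and Bmp4 (-2.71) on the left and Csnk1a1 (0.98), Spon1 (1.23), Arl13b (1.29) and Hsd11b1 (1.39) on the right.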

How the data were processed

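The titles put the 8 samples into 2 groups. Per the labels' protocols, libraries came from Trizol- and column-purified RNA with the TruSeq mRNA kit. Reads were aligned with TopHat2 2.0.2 and groups compared with Cuffdiff 2.0.2, with mm9 as the build, per the submitters' processing notes. The authors deposited 1 FPKM per group and isoform, pooled over its samples, and a p-value. For 6 of 7 members with a RefSeq start in GRCm38.p6, that start equals the edge of the locus in the table. These 6 loci thus match GRCm38 coordinates, although the processing notes name mm9. The build of the loci beyond the members was not checked. Loci are printed from the table, counted from 1, and sequence windows from GRCm38.p6.

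The 17775 isoforms with the authors' status OK were adjusted by the Benjamini-Hochberg method, which gave the deposited significance call for all 34535 isoforms. The status marked 16745 as not tested, 13 as over the fragment limit and 2 as failed. Fold changes were computed from FPKM without a pseudocount, wound bed over nonwounded. The deposited log2 column runs the other way for all 24854 isoforms with a value in both (tolerance 0.01) and was not used. Gene symbols turned into dates (56 isoforms) were restored by transcript. No per-sample column exists to leave out (0), so no test across samples could be run, and the depth is unknown. All 9 members were named, and in the pathway list the called genes, the ligands, Sufu and Kif7. Hhat, Ift88, Evc, Iqce, Foxf1, Snai1, Osr1, Osr2, Sfrp1, Ccnd1, Ccnd2 and Bcl2 were added after their values were seen. Hhip was left out of the dermal papilla markers because it is a member. The rule also named 1 further gene that is not reported here. The members and lists were chosen with earlier results of these data known. The adjustment was tested on simulated data. Python 3.11.15, numpy 2.4.6, pandas 2.3.3 and statsmodels 0.14.6 were used. Alternatives were other thresholds, pseudocounts, a filter on low values, centring, and isoform sums.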

Additional observations from a re-analysis of the deposited data

How the results depend on the processing

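Centring on the median of expressed isoforms (-0.11) turned the direction of none of the 8 tested members. It could not have done so, because the shift is smaller than the smallest of their differences (0.31, Gli2). Pseudocounts cannot turn a direction, and isoform sums equal the value given because each member has 1 listed isoform, so neither bears on stability. Gli3 was called under each of the 5 alternatives for calls. Its adjusted p of 0.00167 (Benjamini-Hochberg) and log2 difference of 1.23 already met the changed thresholds. The remaining alternatives reuse the same deposited p-value, so this does not test stability. At an adjusted p under 0.1 the called members were 3, all higher, and the pathway list had 5 higher and 6 lower. At an adjusted p under 0.01 all isoforms gave 642 higher and 823 lower calls, against 1006 and 1288, and leaving out isoforms at 0 gave 1002 and 933. The median log2 fold change of the pathway list was 0.18 and 0.23 with pseudocounts of 1 and 0.1, 0.032 with isoform sums, 0.34 centred, 0.11 without a filter on low values and 0.13 with an FPKM of at least 5, against 0.23 as reported, and the cause of these moves was not tested. No paired analysis was possible because the table holds 1 value per group, and leaving out single samples was not run for the same reason. The depth of each sample is unknown, which limits what can be said of Hhip, the ligands and other isoforms near an FPKM of 0.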
